A study of Saccharomyces cerevisiae with 8 samples.

Results

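Ergosterol synthesis, storage and regulation were described across 32 genes, read on 8 one-colour arrays of Saccharomyces cerevisiae. The genes were chosen by name from the mevalonate and sterol pathway, sterol esterification and uptake, and the activators UPC2 and ECM22, and were matched to the arrays by systematic name. All 32 had 1 probe each, in 2 spots, among the 6256 probes of every array. The mutant group was 4 samples of a924E1, labelled a pressure-sensitive mutant, and the parent group was 4 samples of KA31a. Both had grown for 48 h at 30 °C in YPD, a rich medium with 2.0% glucose, and no pressure treatment is named for either. The sources used here do not give the altered gene of the mutant, and each group is a single strain. The design text describes independent biological samples.

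Ergosterol is the main sterol of yeast membranes, the counterpart of cholesterol in animals. Acetyl-CoA is built up through mevalonate and isoprenoid diphosphates to squalene, and squalene is then epoxidised, closed into lanosterol and trimmed to ergosterol in the endoplasmic reticulum. Several of these later steps consume molecular oxygen, and some of their enzymes carry heme or iron, so yeast without oxygen takes up sterol from the medium instead. Upc2 and Ecm22 are zinc cluster activators that bind sterol response elements before many of these genes.

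The arrays differed in brightness. Over their local background, mutants 1, 3, 5 and 7 had a median probe signal of 82.0, 113.0, 16.5 and 5.0 intensity units. The same median was 165.5, 183.5, 55.0 and 15.0 units for parents 2, 4, 6 and 8. Mutants 5 and 7 and parent 8 were scanned at a gain of 700 and the others at 600. Of the 32 members, 26, 27, 12 and 5 were above background on mutants 1, 3, 5 and 7, and 32, 31, 26 and 17 on parents 2, 4, 6 and 8. Levels below are log2 of background-corrected intensity after quantile normalization, comparable between arrays for 1 probe but not between probes. They are relative to the whole signal of an array, so fewer cells with a transcript and less of it per cell cannot be told apart. Mutants 1 and 3 were the closest pair, with an SD of 0.118 between their log2 levels, and whether they share RNA was not tested. The slide held the mutant in 1 of its 2 columns and the parent in the other, and position by column and strain therefore cannot be told apart.

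The sterol-ring part of the pathway was split between the strains, and the part leading to squalene did not differ past the threshold. All 5 oxygen-using enzymes (ERG1, ERG11, ERG25, ERG3 and ERG5) were lower in the mutant, by 1.62-fold to 2.83-fold, together with the isomerase gene ERG2 and the electron donor CYB5. ERG4, ERG26, ERG27 and ERG28, which act in the same stretch of the pathway without using oxygen, were higher by 1.27-fold to 1.61-fold. None of the 10 genes up to squalene passed the test, nor did the genes of esterification, uptake and activation. In limma's test, adjusted over all 6256 genes with calls at 0.05, 7 of 32 members were lower (21.9%), 4 were higher (12.5%) and 21 did not pass. At an unadjusted p under 0.05 ERG7 was lower as well. Over all genes 14.0% were called lower and 12.7% higher, so the members' share of higher calls was near that of the array. The median log2 difference, mutant minus parent, was -0.03 over the members and 0.05 over all genes. The set of oxygen-using enzymes was formed with earlier results of these arrays known, so its count has no test of its own.

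**Figure D1:**
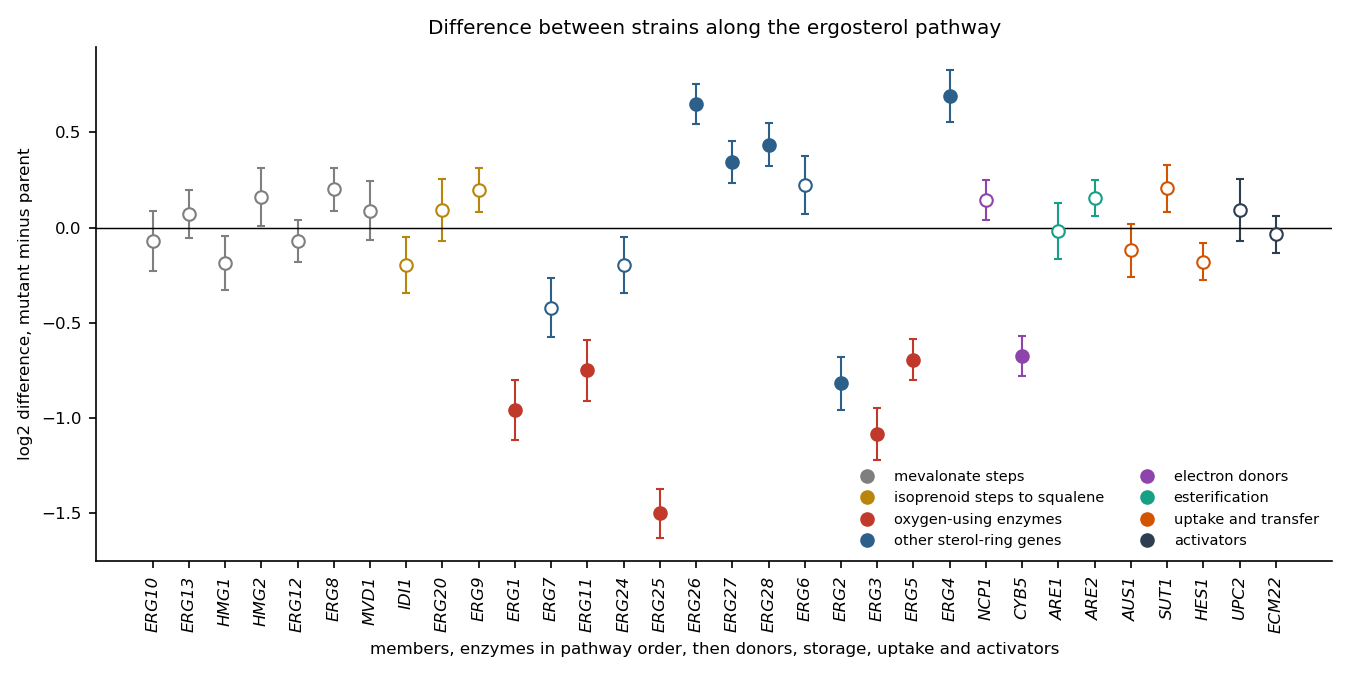
Log2 difference between mutant and parent (vertical axis, with the SE of limma's fit as bars, 4 arrays per strain) for the 32 members, with enzymes in pathway order and then donors, storage, uptake and activators. Filled points passed the test. The 5 oxygen-using enzymes lie between -1.50 and -0.69, and the 10 genes up to squalene between -0.20 and 0.20.

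ERG25, the sterol methyl oxidase that starts removal of the methyl groups beside the hydroxyl of the sterol ring, differed most. Its log2 level was 6.83, 6.76, 7.0 and 7.26 on mutants 1, 3, 5 and 7 and 8.65, 8.39, 8.45 and 8.35 on parents 2, 4, 6 and 8. Every mutant array lay below every parent array, with a gap of 1.09 between the nearest values. The difference was -1.50 ± 0.13 (SE, n = 4 per strain, limma adjusted p = 1.53e-05), or 2.83-fold lower. Before any scaling, the signal over background was 78.5, 98.0, 24.5 and 8.5 units for the mutant and 894.5, 807.5, 299.5 and 83.5 for the parent. Only 0.895% of all genes had a lower difference than ERG25.

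ERG3, the desaturase of the second sterol ring, followed, and it stood at 6.82, 6.83, 6.70 and 6.69 in the mutant and at 7.86, 8.09, 7.97 and 7.47 in the parent. The mutant values were close together and none reached the lowest parent value. ERG3 was 2.12-fold lower, a difference of -1.08 ± 0.13 (limma adjusted p = 0.000179). Among all genes 2.91% were called lower with at least a 2-fold difference, and ERG25 and ERG3 were the members among them.

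ERG1, squalene epoxidase, opens the oxygen-using part of the pathway. It measured 7.23, 7.17, 6.84 and 7.30 in the mutant and 8.50, 8.12, 7.88 and 7.88 in the parent. The strains did not overlap, and ERG1 was 1.94-fold lower (log2 difference -0.96 ± 0.16, limma adjusted p = 0.00108).

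The remaining oxygen-using enzymes, ERG11 and ERG5, are the cytochromes P450 of the pathway. ERG11, the lanosterol demethylase that azole drugs inhibit, was even across the mutant at 7.05, 7.14, 7.13 and 7.07, and spread across the parent at 7.39, 8.23, 8.02 and 7.75. Parent 2 was the nearest to the mutant. The difference was -0.75 ± 0.16, or 1.68-fold lower (limma adjusted p = 0.00505). On the 5 arrays of gain 600 alone ERG11 differed by -0.78 and did not pass (adjusted p = 0.0716). ERG5, the desaturase of the side chain, measured 6.24, 6.18, 6.17 and 5.89 in the mutant and 6.82, 6.79, 6.89 and 6.75 in the parent. Its strains did not overlap, and it was 1.62-fold lower (-0.69 ± 0.11, limma adjusted p = 0.000740). The oxygen-using enzymes were above background on mutants 1 and 3 but on neither of mutants 5 and 7, and on 3 or 4 parent arrays. Over all genes, 14.7% had every mutant array below every parent array, and all 5 of these enzymes did.

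**Figure D2:**
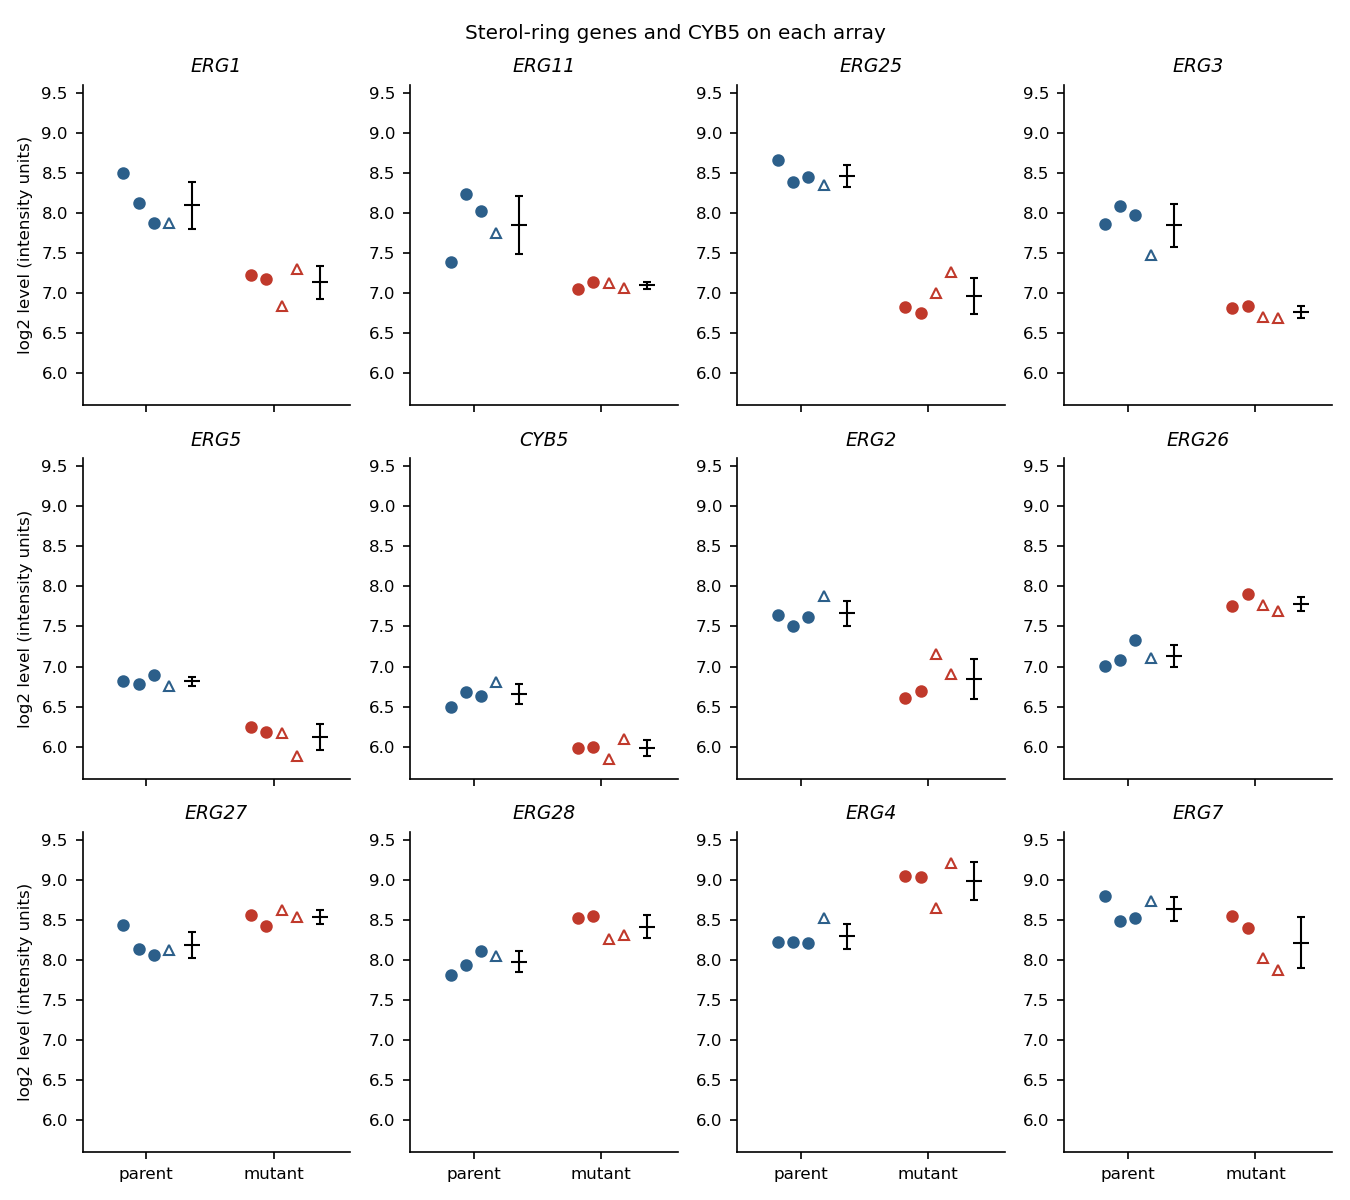
Log2 level on each array (vertical axis) in parent and mutant for the 11 members that passed the test and for ERG7, which did not. Filled circles are arrays of gain 600, open triangles arrays of gain 700, and the bars give the mean ± SD of 4 arrays. The strains are apart in every panel except ERG27 and ERG7.

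The electron donors of these enzymes did not move together. CYB5, cytochrome b5, passes electrons to the iron-containing oxidases and desaturases. It measured 5.98, 6.0, 5.85 and 6.1 in the mutant and 6.50, 6.68, 6.64 and 6.81 in the parent, and passed the test in the lower direction (limma adjusted p = 0.000837). CYB5 exceeded background on 3 parent arrays and on none of the mutant. Its mutant level is therefore only a bound, and no fold is given since the bound came to under 1. NCP1, the reductase that serves the P450 enzymes and squalene epoxidase, did not pass, at 8.09, 8.15, 8.0 and 8.31 in the mutant and 8.10, 7.91, 7.96 and 8.0 in the parent. Its strains overlapped (0.14 ± 0.10, limma adjusted p = 0.346). With array weights NCP1 differed by 0.17 and passed as higher (limma adjusted p = 0.0336), when 26.4% of all genes did.

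Among the 8 sterol-ring genes that use no oxygen, 4 rose (50%), 1 fell (12.5%) and 3 did not pass. Of all genes 12.7% were called higher and 14.0% lower, so the share that fell was near that of the array. ERG26, a dehydrogenase that works on the product of ERG25, was at 7.76, 7.91, 7.77 and 7.69 in the mutant against 7.01, 7.08, 7.33 and 7.11 in the parent. Every mutant array was above every parent array, and ERG26 was 1.57-fold higher (0.65 ± 0.11, limma adjusted p = 0.00110). ERG28, the scaffold protein that holds these enzymes together, measured 8.52, 8.55, 8.26 and 8.32 in the mutant and 7.81, 7.94, 8.11 and 8.05 in the parent. It did not overlap either, and was 1.35-fold higher (0.43 ± 0.11, limma adjusted p = 0.0145). ERG27, the reductase that completes the removal of the methyl group, measured 8.56, 8.42, 8.62 and 8.53 in the mutant and 8.43, 8.13, 8.06 and 8.13 in the parent. Mutant 3 lay just under parent 2, so the strains overlapped, and ERG27 was 1.27-fold higher (0.35 ± 0.11, limma adjusted p = 0.0375). Its call was the least firm of the 11, and ended in 13 of 21 alternative settings, while its difference stayed between 0.23 and 0.45. Leaving out mutant 3 reduced the count of higher members from 4 to 2, by ending the calls of ERG27 and ERG28. The share of higher calls over all genes fell to 9.77% from 12.7%. When close arrays were merged (mutant 1 with mutant 3, parent 6 with parent 8), 2 higher members were again left. Of all genes 7.94% were then higher. Parents 6 and 8 had the smallest SD of the parent pairs, 0.205 over the 1532 genes above background on both. By correlation parents 4 and 6 were closer (r = 0.9886 against 0.9845), and merging that pair was not tested.

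ERG4, the reductase that makes ergosterol in the last step, rose as well. It was at 9.04, 9.04, 8.65 and 9.21 in the mutant and at 8.22, 8.23, 8.21 and 8.53 in the parent. Parent 8 stood above the other parent arrays and still below every mutant array. ERG4 was 1.61-fold higher (0.69 ± 0.14, limma adjusted p = 0.00322), with signal above background throughout all 8 arrays. ERG2, the isomerase that shifts a ring double bond just before ERG3 acts, went the other way, with 6.61, 6.70, 7.16 and 6.91 in the mutant and 7.65, 7.51, 7.62 and 7.88 in the parent. The strains did not overlap, and ERG2 was 1.76-fold lower (-0.82 ± 0.14, limma adjusted p = 0.00125). ERG2 was above background on mutants 1 and 3 but on neither of mutants 5 and 7, and on 4 parent arrays. It uses no oxygen, and was the 1 enzyme outside the oxygen-using set that passed in the lower direction.

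ERG7, lanosterol synthase, just missed the threshold. It measured 8.55, 8.40, 8.03 and 7.87 in the mutant and 8.80, 8.48, 8.53 and 8.74 in the parent, and mutants 5 and 7 were the low ones. The difference was -0.42 ± 0.16 (limma adjusted p = 0.0677), and without mutant 1 it was -0.53 and passed (adjusted p = 0.0291). ERG24, a sterol reductase, differed by -0.20 ± 0.15 (adjusted p = 0.374). ERG6, the methyltransferase that adds the side-chain methyl group of fungal sterols, differed by 0.23 ± 0.15 (adjusted p = 0.315), with 1 mutant and 2 parent arrays above background.

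Genes were also set against each other within each array. In each array, the mean log2 signal of the 5 oxygen-using enzymes was taken less that of the 10 genes up to squalene, with no scaling between arrays. The values were -1.74, -1.89, -1.17 and -0.52 on mutants 1, 3, 5 and 7 and -0.36, -0.19, -0.33 and -0.42 on parents 2, 4, 6 and 8. The strains did not overlap, though mutant 7, the dimmest array, came close to the parent. Without scaling the mutant values were nearest 0 on the dim mutants 5 and 7, and the strains differed by -1.52 within gain 600 and by -0.42 within gain 700. After quantile normalization the strains averaged -1.36 ± 0.06 and -0.33 ± 0.11 (SD, n = 4 each), and differed by -1.11 within gain 600 and by -0.85 within gain 700. ERG25 less the mean of its partners ERG26, ERG27 and ERG28 was -1.88, -2.16, -0.99 and -0.37 in the mutant and 1.03, 0.79, 0.65 and 0.41 in the parent, also unscaled. The strains did not overlap in this difference either. CYB5 less NCP1 overlapped between the strains without scaling, at -2.72, -3.13, -1.30 and -0.61 in the mutant and -2.05, -1.58, -1.35 and -0.72 in the parent, and did not overlap after quantile normalization. These contrasts were formed after the members' differences were known and are given with no test.

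Each of the 4 slide rows holds 1 mutant and 1 parent array, and the differences within rows are given for their size. For the 10 called members whose strains did not overlap, the sign in every row follows from that. ERG27, whose strains overlapped, was higher in each row, by 0.13 to 0.56. ERG25 ran from -1.83 to -1.09 over the rows, ERG3 from -1.27 to -0.77 and ERG1 from -1.27 to -0.58. ERG11 ran from -1.09 to -0.34, with its smallest difference between mutant 1 and parent 2. Among the genes that rose, ERG4 ran from 0.44 to 0.82 and ERG28 from 0.15 to 0.71. Scanner gain moved with brightness and was checked in the same way. On the 5 arrays of gain 600, which leave out the dim mutants 5 and 7 and parent 8, 7 members were called lower and 3 higher. Over all genes 14.8% were then lower and 15.6% higher. ERG11 and ERG27 lost their calls there, and AUS1 gained one. The medians of the oxygen-using enzymes were -0.96 within gain 600 and -0.77 within gain 700.

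**Figure D3:**
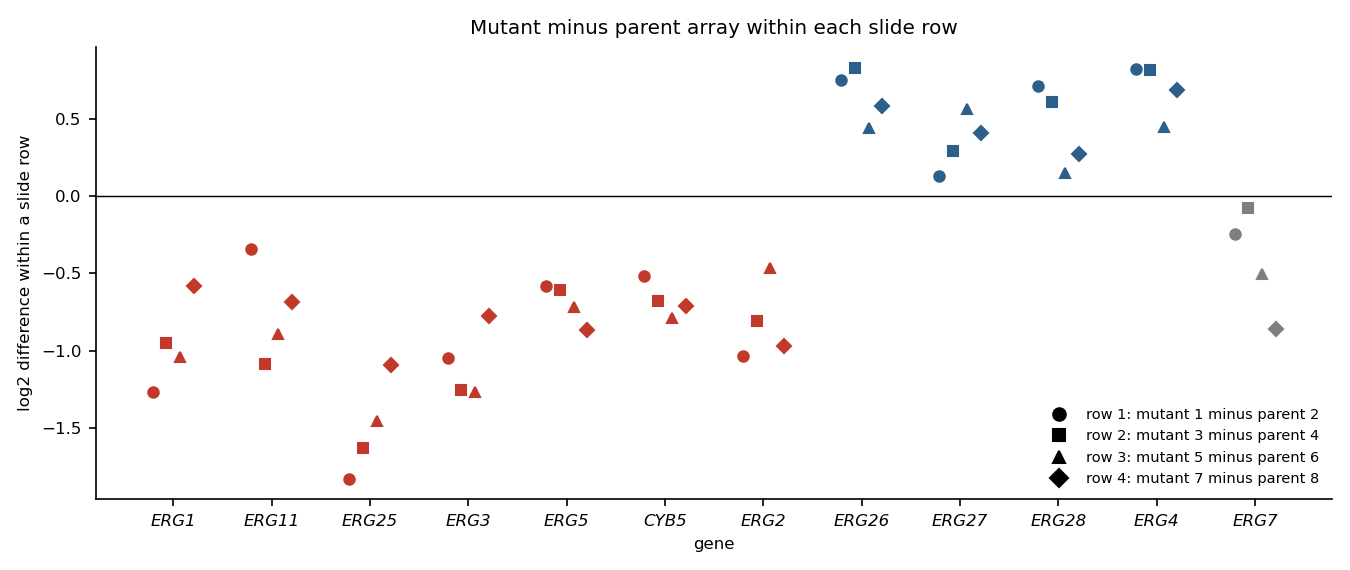
Log2 difference between the mutant and the parent array of each slide row (vertical axis) for the 11 called members and ERG7. Symbols mark the 4 rows, red points are genes called lower, blue points genes called higher, and grey points are ERG7. The sign is fixed by the lack of overlap for every called gene except ERG27.

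The mevalonate genes stayed within a narrow band. All 7 overlapped between strains, with log2 differences from -0.19 to 0.20. ERG10, ERG13, ERG12, ERG8 and MVD1 encode the thiolase, the synthase of hydroxymethylglutaryl-CoA, the mevalonate and phosphomevalonate kinases and the decarboxylase, and their differences were -0.07, 0.07, -0.07, 0.20 and 0.09. ERG12 was above background on no mutant array, so its mutant level is only a bound. HMG1 and HMG2, the paralogous reductases that set the pace of the pathway, had differences of opposite sign and neither passed. HMG1 was at 8.67, 8.51, 8.20 and 8.77 in the mutant and 8.98, 8.62, 8.58 and 8.72 in the parent (-0.19 ± 0.14, limma adjusted p = 0.378). HMG2 was at 8.79, 8.95, 8.43 and 8.60 in the mutant and 8.15, 8.68, 8.54 and 8.75 in the parent (0.16 ± 0.15, limma adjusted p = 0.486). The array probes of paralogs can bind each other's transcripts, which makes values of HMG1 and HMG2, ARE1 and ARE2, and UPC2 and ECM22 less certain one by one.

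The 3 isoprenoid genes did not pass either. IDI1, the isomerase of isopentenyl diphosphate, differed by -0.20 ± 0.15. ERG20, which makes farnesyl diphosphate, differed by 0.09 ± 0.16, and ERG9, squalene synthase at the branch towards sterols, by 0.20 ± 0.12. HMG1, ERG20 and ERG9 were above background on all 8 arrays. With array weights, which rest mostly on mutants 1 and 3, ERG9, ERG8, HMG2, MVD1 and NCP1 also passed as higher. ERG10 and AUS1 then also passed as lower, when 26.4% of all genes were called higher and 22.1% lower.

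The genes that store sterol as esters did not pass. ARE1, an acyltransferase of sterols, measured 6.97, 6.94, 7.44 and 7.07 in the mutant and 7.38, 7.04, 7.21 and 6.86 in the parent. Its strains overlapped over nearly their whole range (-0.02 ± 0.15, limma adjusted p = 0.943). ARE2, the main sterol acyltransferase of cells with oxygen, measured 7.22, 7.15, 7.27 and 7.23 in the mutant and 7.08, 6.96, 7.03 and 7.17 in the parent. Only mutant 3 and parent 8 overlapped, and the difference was 0.16 ± 0.10 (limma adjusted p = 0.262).

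The transcripts of the activators did not differ past the threshold. UPC2 was at 6.12, 6.15, 6.76 and 5.89 in the mutant and 6.08, 6.12, 6.11 and 6.23 in the parent. Mutant 5 was the highest and mutant 7 the lowest of all 8, and UPC2 cleared the background on 2 parent arrays and on none of the mutant (limma adjusted p = 0.720). Its mutant level is therefore only a bound. ECM22 was at 7.28, 7.30, 7.37 and 7.27 in the mutant and 7.49, 7.23, 7.28 and 7.35 in the parent. It differed by -0.04 ± 0.10 (limma adjusted p = 0.820), with 2 mutant and 3 parent arrays above background.

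Of the uptake and transfer genes none passed. AUS1, a transporter that imports sterol when oxygen is lacking, measured 6.85, 6.94, 7.47 and 6.86 in the mutant and 7.19, 7.10, 7.21 and 7.10 in the parent. Mutant 5 stood above the parent and the other mutant arrays below it. The difference was -0.12 ± 0.14 (limma adjusted p = 0.576), and -0.27 on the arrays of gain 600, where it passed (adjusted p = 0.0357). SUT1, a transcription factor of sterol uptake, and HES1, an oxysterol-binding protein, were above background on no mutant array. HES1 lay below the parent on all mutant arrays, at 5.85 to 6.08 against 6.14 to 6.24, without passing (limma adjusted p = 0.216).

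**Figure D4:**
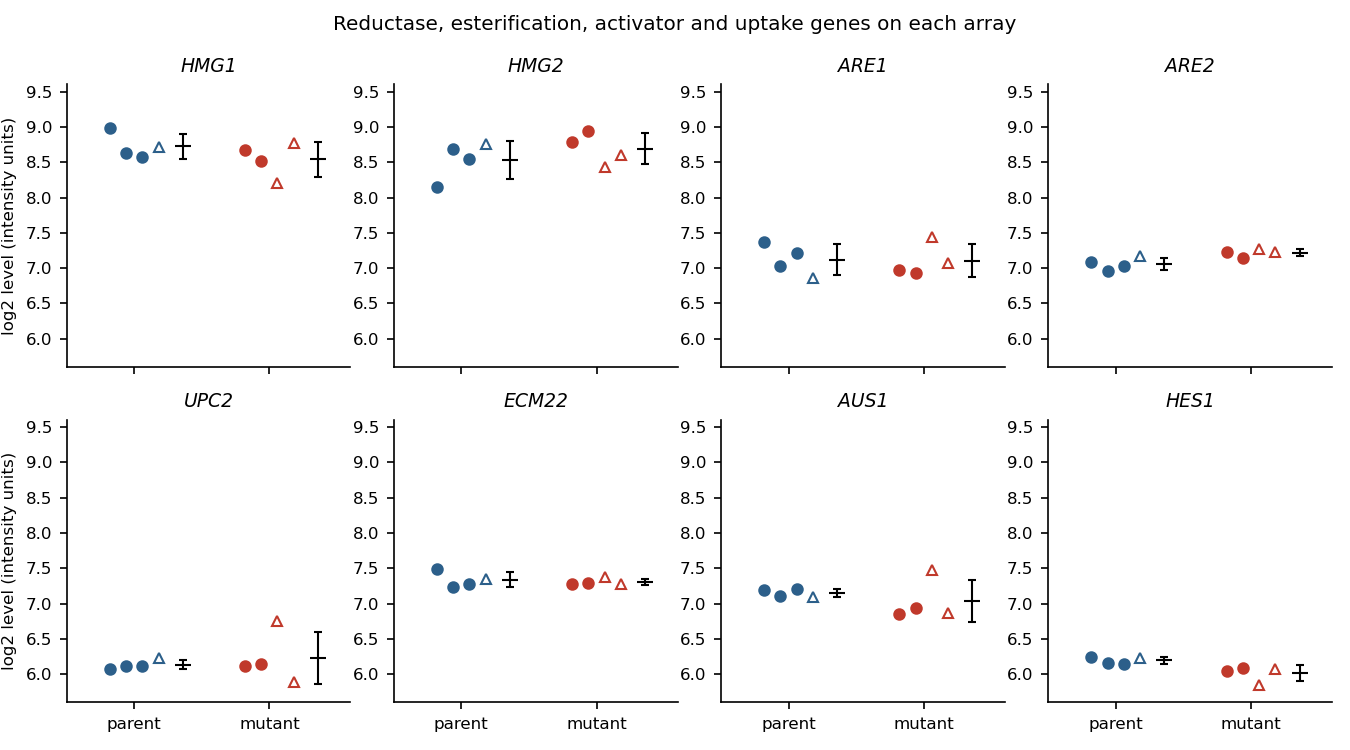
Log2 level on each array (vertical axis) in parent and mutant for the paralogous pairs HMG1 and HMG2, ARE1 and ARE2, UPC2 and ECM22, and for AUS1 and HES1. Filled circles are arrays of gain 600, open triangles arrays of gain 700, and bars give the mean ± SD of 4 arrays. Mutant 5 stands above the other arrays for ARE1, UPC2 and AUS1.

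Another 48 genes of sterol transport, ester breakdown, control and related isoprenoid use were read beside the members. Of these 8 were higher (16.7%), 3 were lower (6.25%) and 37 did not pass, against 12.7% and 14.0% of all genes. Of 6 heme and oxygen regulators 2 were lower and 4 did not pass. HAP1, the heme-responsive activator of respiratory and some sterol genes, was 1.50-fold lower (-0.58 ± 0.11, limma adjusted p = 0.00327). MOT3, a repressor of genes for growth without oxygen, passed as lower but was above background on no mutant array (limma adjusted p = 0.0453). ROX1, the other such repressor in the list, differed by -0.20 (adjusted p = 0.337), and DAP1, a heme-binding partner of ERG11, by -0.48 (adjusted p = 0.0580).

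Of 6 cell wall genes that Upc2 activates without oxygen, TIR1 was 1.67-fold higher (limma adjusted p = 0.0173) and 5 did not pass. That is 16.7% of the list called higher, against 12.7% of all genes. DAN1 and DAN4 were above background on no array. TIR2 and TIR4 are neighbours of AUS1 on the chromosome and did not pass either. None of the 6 genes that control the level of HMG-CoA reductase passed, with differences from -0.25 to 0.10.

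Of 13 sterol and oxysterol transport genes 3 were higher (23.1%, against 12.7% of all genes) and 10 did not pass. SWH1, an oxysterol-binding gene, is among the 10 by its YAR042W probe, which was above background on no array. A further probe, OSH1 (YAR044W), carries names that the reference table gives as synonyms of SWH1. It was above background on all 8 arrays and passed as higher (0.33 ± 0.11, limma adjusted p = 0.0440), so the probes disagree. The paralogous oxysterol-binding genes OSH6 and OSH7 were 1.62-fold and 1.52-fold higher (limma adjusted p = 0.000891 and 0.0123), while the strains overlapped for OSH7. SIP3, of a sterol-binding family at membrane contacts, was 1.44-fold higher (adjusted p = 0.0117). TGL1, a steryl ester hydrolase, was 1.62-fold higher (limma adjusted p = 0.0167), the 1 of 5 genes of ester hydrolysis and acetylation that passed. On the arrays of gain 600 TGL1 differed by 0.49 and OSH7 by 0.63, and neither passed (adjusted p = 0.0518 and 0.0530). NCR1 of the transport list and SAY1 of the ester list passed as higher only there. They differed by 0.43 and 0.34 (limma adjusted p = 0.00666 and 0.0309). These lists thus again had 3 and 1 higher genes, when 15.6% of all genes were higher. TGL4, a triacylglycerol lipase, was 1.46-fold higher (adjusted p = 0.0105), and 4 other genes of triacylglycerol storage did not pass. In the main fit 20% of each of these lists of 5 genes were higher, against 12.7% of all genes.

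Farnesyl diphosphate is also drawn into coenzyme Q, dolichol, heme A and protein prenylation. Of 7 genes that use it 2 were higher (28.6%), 1 was lower (14.3%) and 4 did not pass. Of all genes 12.7% were higher and 14.0% lower, so the share of lower calls was near that of the array. COQ1, which makes the tail of coenzyme Q, was 2.06-fold higher with overlapping strains (limma adjusted p = 0.00511), and COX10, which attaches a farnesyl group to heme on the way to heme A, was 1.46-fold higher (adjusted p = 0.00149). RER2, of dolichol synthesis, passed as lower but was above background on no mutant array (adjusted p = 0.00924). It lies next to COQ1 on the chromosome, and the neighbours differed in opposite directions.

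**Figure D5:**
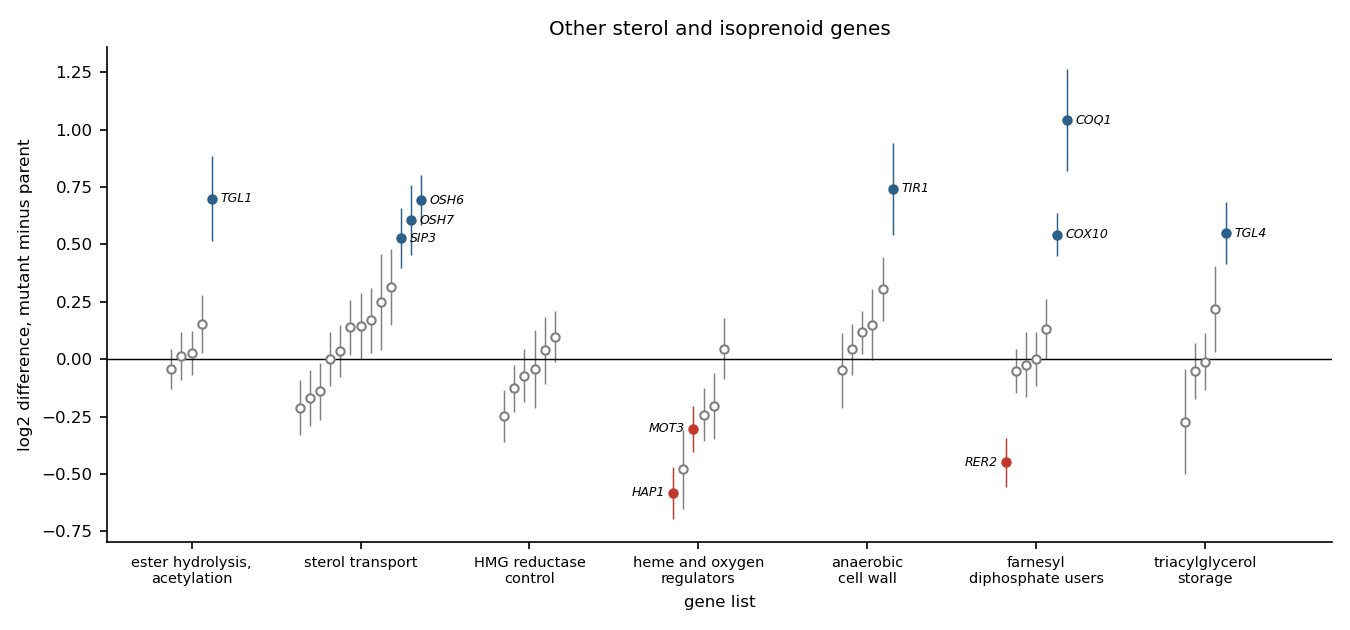
Log2 difference between mutant and parent (vertical axis, with the SE of limma's fit as bars) for the 48 other genes in 7 lists. Blue points were called higher, red points lower, and open grey points did not pass. HAP1, MOT3 and RER2 are the red points.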

How the data were processed

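RNA of 4 mutant and 4 parent samples was measured. Each sample gave 0.5 µg of total RNA, made into cDNA and then Cy5-labelled cRNA, per the labels' protocols. Per the file headers, GenePix Pro 6.1.0.4 read all arrays from 1 slide and applied no normalization. The tables deposited by the authors give each spot's intensity on a linear scale, beside a score for signal to noise and the percent of saturated pixels, which was 0 for every member. The authors also deposited a value table of intensity per probe. It is linear, is not centred and has column medians of 75.1 to 79.4. How the authors scaled it stays unknown.

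Here the median of each spot was corrected by normexp (limma 3.58.1, R 4.3.3, offset 50). The log2 values were quantile-normalized, and the 2 spots were averaged. The offset makes folds of dim genes too small. A probe counted as measured above background where GenePix gave both of its spots a signal-to-noise score of 3 or more. Where no array of a strain met this, only a bound of the fold was sought. Strains were compared with lmFit and eBayes, two-sided, with no covariate. Adjustment was by Benjamini-Hochberg over all 6256 genes, or over the genes kept where a filter was used. Every adjusted p is from this model, except where fewer arrays or another alternative are named. Fits on fewer arrays used the same normalized values. The steps were also run on simulated arrays of differing brightness, all given the same random variation. That run does not test arrays of unequal quality. The 32 members and the 48 other genes were all found in a table of reference assembly R64, used for names and neighbours only. The text names all 32 members and all called genes of the 7 other lists. ROX1, DAP1, DAN1, DAN4, TIR2, TIR4, SWH1, NCR1 and SAY1 did not pass in the main fit. Like the OSH1 probe, they were singled out after their values were seen. The members and lists were chosen with earlier results of these data known. Alternatives were other scalings, background corrections, filters, blocks, array weights, averaging of close arrays and leaving out each array.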

Additional observations from a re-analysis of the deposited data

Results flagged for a closer look

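Single arrays stood apart from the other arrays of their strain for 3 members, of 64 sets of 4 arrays examined. Chance alone sets apart about 1 in 20 such sets. For ERG4, parent 8 was at 8.53 against 8.21 to 8.23 on the other parent arrays, a gap of 0.935 of the parent's range. For AUS1, mutant 5 was at 7.47 against 6.85 to 6.94 on the other mutant arrays, a gap of 0.848 of the range. For HES1, mutant 5 was at 5.85 against 6.05 to 6.08, a gap of 0.866 of the range. All 3 values come from arrays of gain 700. Whether brightness has a part in them was not tested.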

How the results depend on the processing

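The 11 called members kept their direction under all alternatives that measured them. With quantile normalization, the counts of 4 higher and 7 lower members stayed within 1.5 times under other background corrections. So they did with gain or slide row as a block. The authors' value table, taken as log2 after adding 50 units and not quantile-normalized here, kept them too. Through these fits 12.2% to 13.9% of all genes were higher and 13.4% to 14.7% lower. With 75th percentile scaling limma called 0 members higher and 0 lower, and 0% and 0.911% of all genes, while ERG25 still differed by -1.60 and ERG3 by -1.04. Median scaling left 0 higher and 1 lower, ERG25, against 0% and 0.591% of all genes. These scalings moved the median of all genes to 0.21 and 0.15, from 0.05. The 3 arrays of gain 700 include only 1 parent array, so differences alone are given for them. There the members' median was 0.05, against 0.04 over all genes, and ERG25 differed by -1.22. A filter for brightness on every array of a strain kept 17 members, with 3 higher and 3 lower, against 20.2% and 27.9% of the 1536 genes kept. The 3 lower ones, ERG1, ERG25 and ERG2, passed this filter only through the parent, the strain where they are high. Their calls there are therefore no added evidence. A filter for brightness on all 8 arrays kept 5 members, with 1 higher and 0 lower, where 34.4% and 16.8% of 582 genes were. Array weights gave 9 higher and 9 lower (26.4% and 22.1% of all genes). Averaging the close arrays gave 2 higher (7.94% of all genes). Leaving out each array gave 2 to 4 higher and 7 to 8 lower, against 8.52% to 13.6% and 10.7% to 13.9% of all genes. The cause of these changes was not tested. The filter on all 8 arrays kept ERG27, which lost its call there (limma adjusted p = 0.0514, against 0.0375 over all genes).

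Signs changed only for members that were not called at first. Over the fits that each left out 1 array, log2 differences ran from -0.23 to 0.032 for ERG10, -0.037 to 0.12 for ERG13, -0.12 to 0.0043 for ERG12, -0.0030 to 0.21 for MVD1, -0.055 to 0.18 for ERG20, -0.13 to 0.069 for ARE1, -0.085 to 0.20 for UPC2 and -0.071 to 0.015 for ECM22. Gain 700 alone gave ERG10 0.054, HMG2 -0.23, ARE1 0.40 and AUS1 0.067, and gain 600 alone gave ERG13 -0.12 and ERG12 0.039. Averaging close arrays gave ERG10 0.045, MVD1 -0.028, ERG20 -0.026 and ARE1 0.0051. Median scaling gave ERG13 -0.021, ERG12 0.15, ERG20 -0.041 and HES1 0.082, and 75th percentile scaling gave ERG12 0.21 and HES1 0.14. Array weights gave ERG13 -0.063 and ERG12 0.018. No background correction gave ARE1 0.034 and ECM22 0.0014, and the value table gave ARE1 0.097 and ECM22 0.056. The labels give the strains no shared replicate number. With the slide row as a block, pairing 1 mutant with 1 parent array, 4 members were higher and 7 lower. Of all genes 13.9% were then higher and 14.7% lower. Signal over background limits UPC2, ERG12, SUT1, HES1 and CYB5, at background on every mutant array.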
